A study of Mus musculus with 8 samples.

Results

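The complement system was examined here through its components and receptors in mouse bone marrow macrophages. A list of 9 genes was taken by symbol, and every probe that the platform annotation gives to them was taken. Of the 9 listed genes, 8 had a probe, 10 probes in all, among 19057 named genes on the array. They were the C1q chains C1qa, C1qb and C1qc, the components C4b and Cfb, properdin (Cfp), and the receptors C3ar1 and C5ar1. C3 was not analysed here.

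RNA was measured on 8 Illumina beadchip arrays in bone marrow macrophages. By their labels 4 are wild type (WT 1 to WT 4) and 4 are vav1-/- (KO 1 to KO 4), all of strain C57BL/6, from male and female mice 7 to 12 weeks old. No stimulus is named, and the labels do not say how the marrow was cultured or whether each library came from its own animal, so a p-value here speaks of the spread among these libraries alone, part or all of which may be technical. By the labels Vav1, a signalling protein of blood cells, is the deleted gene, and the design compares its absence with its presence. In bulk RNA, fewer cells of a type and less RNA per cell cannot be told apart.

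Complement is a cascade of plasma proteins that tags microbes and dying cells for uptake. C1q, built from the products of C1qa, C1qb and C1qc, starts the classical pathway, and macrophages are a main source of it. Properdin stabilises the enzyme of the alternative pathway, in which factor B is the catalytic subunit, and the receptors for the fragments C3a and C5a carry the signal of complement activation into leukocytes.

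Promoter sequences of 4 members are shown first, because C1qb and C1qc had like patterns over the libraries and the receptors C3ar1 and C5ar1 had opposite ones. Each is the 250 bases before the RefSeq start of the gene on build GRCm38.p6, written from 5′ to 3′ on the strand of the gene, with the letters of the motifs searched in capitals. RefSeq promoters were matched for 6 of the 9 listed genes, not for C1qa, C4b and Cfb.
C1qb, chr4:136886201-136886450, minus strand: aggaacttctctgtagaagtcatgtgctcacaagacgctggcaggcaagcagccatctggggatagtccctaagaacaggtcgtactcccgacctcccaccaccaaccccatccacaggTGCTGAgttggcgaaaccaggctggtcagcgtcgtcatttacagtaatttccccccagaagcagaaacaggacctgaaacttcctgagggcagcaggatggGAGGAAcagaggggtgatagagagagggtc
C1qc, chr4:136892915-136893164, minus strand: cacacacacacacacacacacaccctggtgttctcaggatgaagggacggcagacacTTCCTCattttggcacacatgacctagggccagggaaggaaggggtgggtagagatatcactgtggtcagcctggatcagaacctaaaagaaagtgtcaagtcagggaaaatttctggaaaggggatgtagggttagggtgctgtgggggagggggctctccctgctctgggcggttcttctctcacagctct
C3ar1, chr6:122856158-122856407, minus strand: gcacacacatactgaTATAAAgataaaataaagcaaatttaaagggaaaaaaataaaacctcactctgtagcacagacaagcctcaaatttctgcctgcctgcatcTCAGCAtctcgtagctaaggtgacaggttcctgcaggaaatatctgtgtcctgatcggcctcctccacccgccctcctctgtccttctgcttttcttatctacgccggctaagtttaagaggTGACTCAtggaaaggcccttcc
C5ar1, chr7:16259339-16259588, minus strand: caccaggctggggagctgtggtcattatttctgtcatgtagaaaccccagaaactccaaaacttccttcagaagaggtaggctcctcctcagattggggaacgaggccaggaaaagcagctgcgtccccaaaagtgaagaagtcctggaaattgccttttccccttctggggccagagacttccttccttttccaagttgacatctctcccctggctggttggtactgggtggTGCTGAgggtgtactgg
The motifs searched on both strands were the MAF core TGCTGA, the PU.1 core GAGGAA, the AP-1 site TGACTCA and the TATA box TATAAA, where a MAF core and an AP-1 site may share letters. MAF proteins and PU.1 are transcription factors of macrophages. The C1qb window held a MAF core beginning 131 bases before the start and a PU.1 core beginning 30 bases before it. The C1qc window held a PU.1 core on the other strand, 193 bases before the start, and no MAF core. The C3ar1 window held a TATA box letter run 235 bases, a MAF core 144 bases (other strand) and an AP-1 site 22 bases before the start. The C5ar1 window held a MAF core 17 bases before the start, and the Cfp window held none of the 4 motifs. Over all 32851 promoter windows of this length, 16.1% held a MAF core, 23.3% a PU.1 core, 4.46% an AP-1 site and 12.4% a TATA box. A match is a run of letters, not a site shown to be bound.

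The deposited intensities share 1 distribution on each array, from 68.1 to 26278 with a median of 86.2. Vav1, read by 1 probe, went against 4 of the labels: it was at 1825, 1642, 1805 and 1699 in WT 1, WT 2, KO 1 and KO 2 and at 267, 384, 308 and 288 in WT 3, WT 4, KO 3 and KO 4. For Vav1 the knockout label had a mean of 1025 and the wild type label one of 1030, with a log2 difference of -0.047 ± 0.87 (SE). A difference between the labels is thus not one between high and low Vav1 signal on this probe. The labels do not give the position of this probe relative to the deletion. All directions therefore compare libraries as labelled, knockout minus wild type, and each library stayed under its label. The library labelled WT 4 stood apart, correlating with the other 7 at 0.839 to 0.901 where those correlated among themselves at 0.971 to 0.996. In WT 4, 38.7% of the 2763 genes with several kept probes had probes whose deviations differed by more than 2-fold, against 0.109% to 1.66% in the other libraries. Of 12 macrophage markers, 11 had a probe and 11 reached the intensity minimum given below, with summed intensities of 33787 to 38219 under the knockout label and 30359 to 40243 under the wild type label. The highest sum was in WT 4. It includes 19319 from 1 probe of Lyz2, a lysozyme of macrophages, while another Lyz2 probe read 1140 there. The sum in WT 4 thus depends on the probe and does not show a steady macrophage signal. Of 9 markers of stromal cells, another source of complement, 8 stayed under an intensity of 100 on every array, Col1a1, Col3a1 and Dcn among them, and the whole list summed to 747 to 761 and 750 to 791. Of 5 hepatocyte markers 0 reached the minimum. Alb, Ttr and Fga stayed under 100 on every array, while Apoa1 had a highest value of 150. That list summed to 408 to 418 and 414 to 505, highest in WT 4. Of 8 neutrophil markers with a probe 2 reached the minimum, and the highest value was 255, on S100a8. That list summed to 783 to 846 and 762 to 875. Measured genes numbered 1 of 7 for dendritic cells, 1 of 4 for B cells, 0 of 7 for T and NK cells and 1 of 6 for mast cells and eosinophils, and 1 of 5 on the erythroid and megakaryocyte list, Pf4, which reached 7143 in WT 4.

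A probe was called measured when 4 or more of its 8 values were 100 or higher. By that minimum 6 members were measured, namely the 3 C1q chains, Cfp, C3ar1 and C5ar1, and 2 were not, C4b and Cfb. None of the 6 measured members passed the test between the labelled genotypes. At an adjusted p under 0.05 in limma, 0 of 6 members passed, beside 0 of 13479 probes tested (0%). At an unadjusted p under 0.05 there were 0 members and 44 probes (0.326%). That share is far below 0.05, the share a well-calibrated test gives when nothing differs. With 1 library left out in turn, the number ran from 9 probes (without KO 4) to 549 (without WT 2). Whether the fit is cautious on these data was not tested, and not passing does not show that the labels are alike. The 4 libraries of 1 label lay wholly above or below those of the other in 0 of 6 members, where this was so in 1.13% of the 7982 genes measured.

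C1qb and C1qc were bright in 7 libraries and much lower in WT 4, and neither passed the test between the labels. C1qb, the B chain, read 4419, 7278, 7639 and 1066 in WT 1 to WT 4 and 5185, 4695, 10139 and 7761 in KO 1 to KO 4. WT 4 was lowest by far, KO 3 was highest, and the labels overlapped. The knockout label had a mean of 6945 ± 2519 (SD, n = 4) and the wild type label one of 5101 ± 3051 (SD, n = 4). The log2 difference between them was 0.72 ± 0.59 (SE), with a 95% interval of -0.61 to 2.05 and an adjusted p of 0.795 in limma. Without WT 4 it was 0.08 ± 0.28 (SE), from -0.56 to 0.72. The value over all libraries thus rested on WT 4, and a difference of either sign lies within both intervals.

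C1qc, the C chain, had a pattern close to that of C1qb, with a root mean square difference of 0.28 between their centred log2 values over the 8 libraries. It read 2846, 3988, 6521 and 1057 in WT 1 to WT 4 and 4469, 4061, 6312 and 6533 in KO 1 to KO 4. WT 4 was again lowest, and the 3 highest libraries were WT 3, KO 3 and KO 4. Its log2 difference was 0.82 ± 0.49 (SE), from -0.27 to 1.92, with an adjusted p of 0.795 in limma. Without WT 4 the difference was 0.32 ± 0.27 (SE), from -0.29 to 0.93, so it did not pass the test either way. Each of the 2 genes is read by 1 probe on this array.

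C1qa, the A chain, was read by a dim probe, not far above the array median. It read 107, 101, 144 and 123 in WT 1 to WT 4 and 114, 110, 146 and 152 in KO 1 to KO 4. The library labelled WT 4 was not low here, unlike for the other chains, and the labels overlapped. The log2 difference was 0.17 ± 0.19 (SE), from -0.27 to 0.60, with an adjusted p of 0.795 in limma, and it was 0.07 (without KO 4) to 0.29 (without WT 3) with 1 library left out in turn. Levels of different probes cannot be set against each other, so the dim C1qa probe does not give the amount of the A chain relative to the B and C chains. C1qb, C1qc and C1qa follow each other on chromosome 4 with 0 coding genes between them in the RefSeq table of assembly GRCm38.p6.

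**Figure D1:**
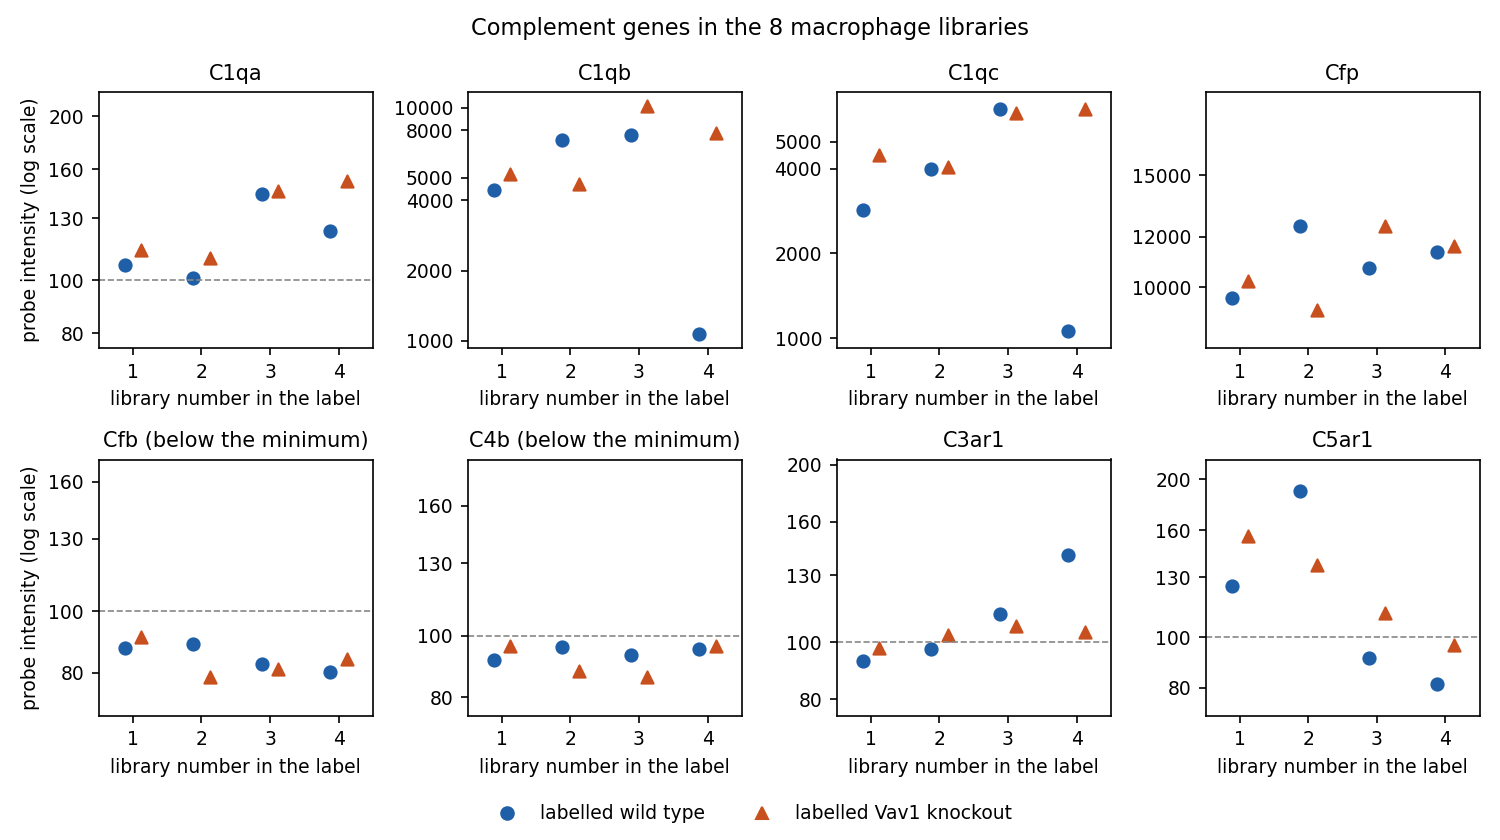
Probe intensity (log scale, its own range in each panel) of the 8 complement genes with a probe, the probe with the highest mean for C4b, against the library number in the label. Circles are libraries labelled wild type, triangles those labelled Vav1 knockout, each point is 1 library, and the dashed line marks an intensity of 100; C1qb and C1qc were lowest in WT 4 at 1066 and 1057.

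Among the alternative pathway members, the properdin probe was bright and the factor B probe was dim. Cfp, on the X chromosome, read 9596, 12477, 10705 and 11340 in WT 1 to WT 4 and 10240, 9213, 12477 and 11598 in KO 1 to KO 4. Its highest value was 1.35 times its lowest, and the labels overlapped fully. The log2 difference was -0.023 ± 0.14 (SE), from -0.34 to 0.30, with an adjusted p of 0.949 in limma, and -0.0071 without WT 4. Of the 6 measured members it had the narrowest interval. Cfb, the gene of factor B on chromosome 17, read 78.8 to 91.3 and never reached 100.

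C4b encodes a component of the classical pathway that is cleaved after C1q binds. Its 3 probes read 86.0 to 96.4, 83.2 to 102 and 82.6 to 96.4, and 1 value in all reached 100, in WT 2. C4a is a near-identical gene, so these probes may not tell the pair apart, and the C4a probes were also below the minimum. In a fit of all probes without the minimum, the log2 differences of the C4b probes were -0.049, -0.11 and -0.08, that of Cfb was -0.025, and the lowest adjusted p of these 4 was 0.903 in limma. Neither gene can be compared at this signal.

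The receptor genes were dim, and they ran opposite to each other over the library numbers. C5ar1, the receptor for C5a, read 125, 190, 91.3 and 81.4 in WT 1 to WT 4 and 156, 137, 111 and 96.6 in KO 1 to KO 4. All 4 libraries numbered 1 or 2 were above all 4 numbered 3 or 4, whichever the label. The log2 difference between the labels was 0.13 ± 0.33 (SE), from -0.61 to 0.87, with an adjusted p of 0.875 in limma, and its sign turned without WT 4, to -0.079. C3ar1, the receptor for C3a, read 92.8, 97.4, 111 and 141 in WT 1 to WT 4 and 97.8, 103, 107 and 104 in KO 1 to KO 4. Its libraries numbered 3 or 4 were the higher ones, by a narrow margin in KO 4, and WT 4 was highest. Its log2 difference was -0.11 ± 0.17 (SE), from -0.49 to 0.28, with an adjusted p of 0.820 in limma, and 0.05 without WT 4.

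The libraries numbered 1 and 2 and those numbered 3 and 4, which Vav1 sets apart, were also parted by members. C1qa read 101 to 114 in the libraries numbered 1 or 2 and 123 to 152 in those numbered 3 or 4. Together with C3ar1 above and C5ar1 below, this made 3 of 6 measured members without overlap between the numbers, against 7.83% of the 7982 genes measured. By direction, 2 members were higher in the numbers 3 and 4, beside 3.70% of genes, and 1 was lower, beside 4.13%. With WT 4 left out, C1qb read 4419 to 7278 against 7639 to 10139 and C1qc 2846 to 4469 against 6312 to 6533. That made 5 of 6 members, against 14.6% of genes, of which 4 were higher (6.59% of genes) and 1 lower (7.97%), and Cfp overlapped. The numbers carry no stated meaning in the labels, the split was not tested, and C3ar1 and C5ar1 reached the minimum on 5 arrays each, mostly through the libraries where they were high. The counts therefore describe the members and support nothing about the list.

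**Figure D2:**
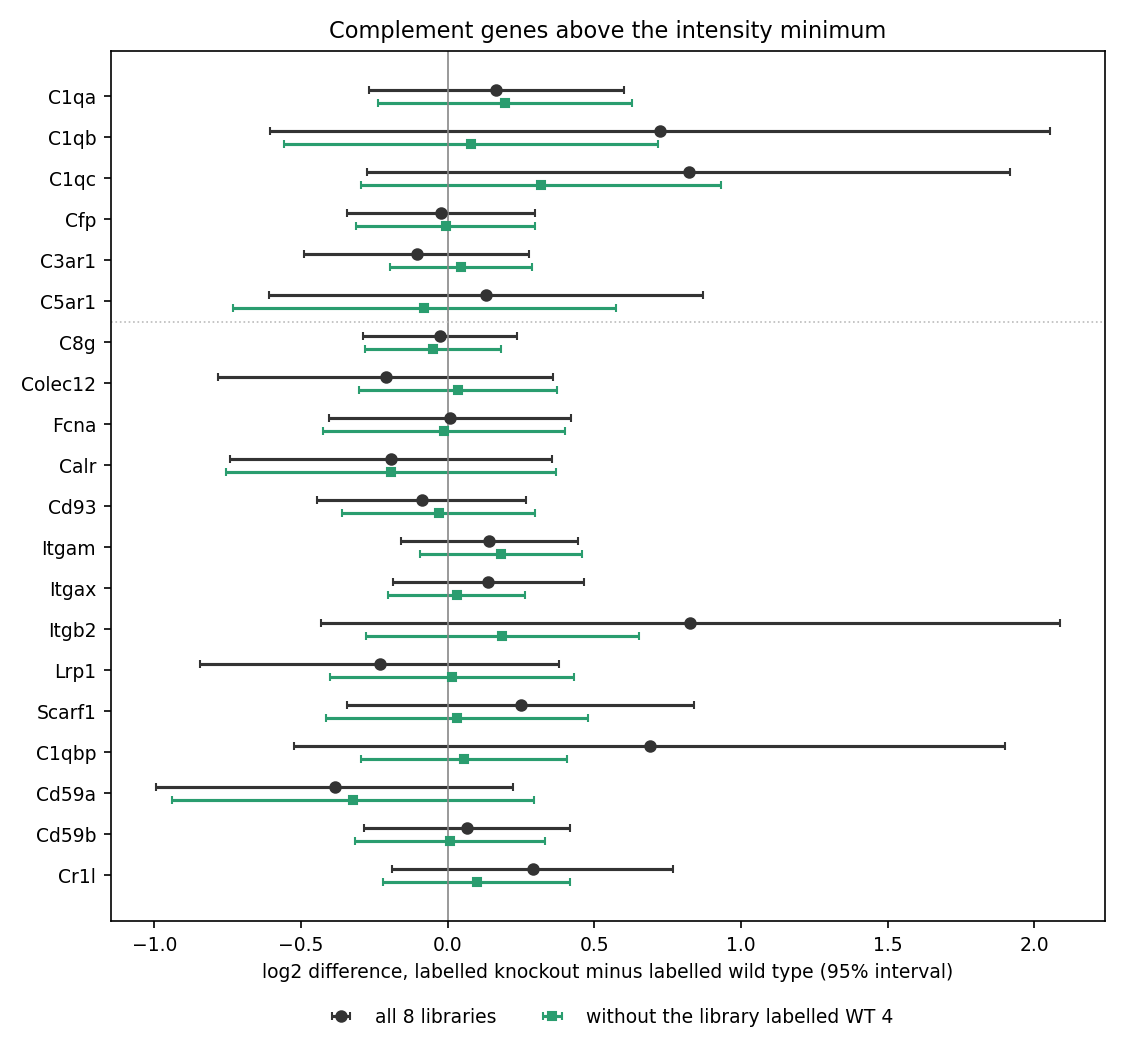
Log2 difference between the libraries labelled knockout and wild type (horizontal axis, 95% interval as bars) for the 6 measured members above the dotted line and the 14 measured genes of the wider complement list below it. Black circles use all 8 libraries and green squares leave out WT 4; C1qb moves from 0.72 to 0.08 and C1qc from 0.82 to 0.32, and no interval with all 8 libraries lies off 0.

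C1qb and C1qc lay far below their usual level in WT 4, while the other 4 measured members stayed within 2-fold of theirs. The median of the other 7 libraries was 6.82 times the WT 4 value for C1qb and 4.23 times for C1qc. Of the 6 members 2 lay more than 2-fold below the other 7, beside 11.0% of genes measured, and 0 lay more than 2-fold above, beside 6.36%. On the log2 scale WT 4 differed from the median of the other 7 by -2.80 for C1qb, -2.10 for C1qc, -0.80 for C5ar1, 0.08 for Cfp, 0.14 for C1qa and 0.56 for C3ar1. Probes of one gene could go opposite ways in this library, by more than 2-fold each way in 40 of the 2763 genes with several kept probes. On 1 probe of Lyz2 WT 4 was at 1140 and the rest at 11805 to 21720, and on another WT 4 was at 19319 and the rest at 11685 to 16782. The WT 4 value of that other probe was 1.38 times the median of the other 7, under 2-fold. The part that such differences between probes play in the low C1qb and C1qc values was not tested.

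**Figure D3:**
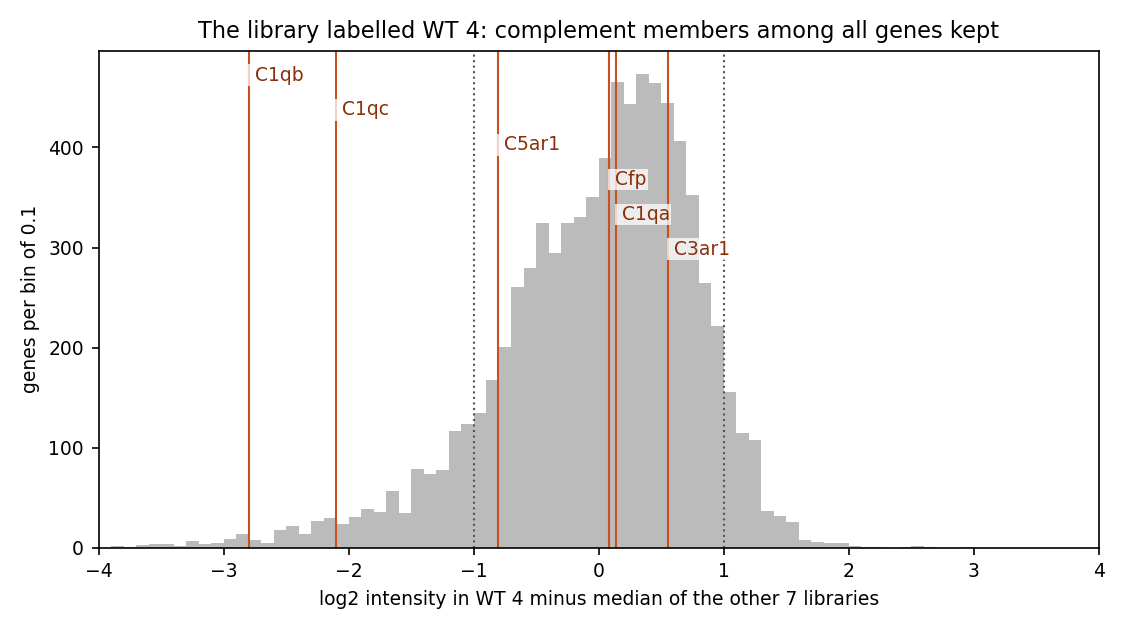
Number of measured genes (vertical axis, bins of 0.1) by the log2 intensity in WT 4 minus the median of the other 7 libraries (horizontal axis). Orange lines mark the 6 measured members and dotted lines a 2-fold difference; C1qb at -2.80 and C1qc at -2.10 lie in the lower tail and the other 4 within the dotted lines.

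The median log2 difference over the 6 measured members was 0.15 between the labels, with 4 values above 0 and 2 below, beside a median of -0.038 over all genes measured. Without WT 4 the medians were 0.06 and -0.0087. Of the members, C1qb and C1qc had the highest log2 differences over the 8 libraries, and the other 4 had a median of 0.05.

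The wider complement list held 49 further genes, of which 45 had a probe, 14 were measured and 31 were not. Of these, 0 of 14 rose and 0 fell at an adjusted p under 0.05 in limma, 0 had an unadjusted p under 0.05, and the median log2 difference was 0.04, and 0.02 without WT 4. Genes that start or carry the cascade were mostly dim. In the classical and lectin arms 13 of 15 stayed below the minimum, among them C1ra, C1s1 and C2, which read at most 98.7. Of the terminal pathway genes 6 of 7 were below it, and C8g, a chain of the membrane attack complex, read 106 to 127. Fcna, a ficolin that binds sugars on microbes, read 131 to 216 and did not part the labels.

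Of the receptors on the wider list 7 of 11 were measured, and of the regulators 4 of 12 with a probe. Itgb2, the beta chain shared by complement receptors CR3 and CR4, read 163 in WT 4 and 597 to 1142 in the other 7, with a log2 difference of 0.83 ± 0.56 (SE), and 0.19 without WT 4. The alpha chains Itgam and Itgax read 131 to 175 and 125 to 179. Cd93, a surface protein once described as a C1q receptor, read 2814 to 4009 on its brightest probe, with a log2 difference of -0.089. Its other probe gave 0.05, and without WT 4 both values were below 0, at -0.030 and -0.065. Calr, calreticulin, which binds C1q on dying cells, read 838 to 1640 with a difference of -0.19, and Lrp1, an uptake receptor, read 1026 in WT 4 and 408 to 655 elsewhere with a difference of -0.23, which without WT 4 was 0.015. None of these passed the test.

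Further genes below an intensity of 1000, the regulators described next among them, were named after their values were seen. Cd59a, which blocks the membrane attack complex on self cells, read 854, 999, 467 and 866 in WT 1 to WT 4 and 733, 670, 591 and 423 in KO 1 to KO 4, with a log2 difference of -0.39 ± 0.27 (SE) and an adjusted p of 0.795 in limma. It was lowest in KO 4 and WT 3, and the labels overlapped. Its close relative Cd59b read 128 to 143 in the libraries numbered 1 or 2 and 108 to 113 in those numbered 3 or 4, and the probes of the pair may share transcripts. C1qbp, which codes for a mitochondrial protein found as a C1q binder, was at 88.9 in WT 4 and at 324 to 507 elsewhere. Over the wider list, 1 of 14 genes had no overlap between the numbers, beside 7.83% of all genes measured, and 4 of 14 without WT 4, beside 14.6%.

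The genes whose pattern over the 8 libraries was most like the mean of the C1q chains were Adgre5, Abcc3, H2-Q7, Pira1 and Slc7a7. Likeness was the root mean square difference of centred log2 intensity, which was 0.13 for Adgre5, 0.15 for Abcc3, 0.16 for H2-Q7 and 0.17 for both Pira1 and Slc7a7, beside a median of 0.68 over all genes measured. By the same measure C1qa lay 0.91 from C1qb and 0.75 from C1qc. Without WT 4 these distances were 0.30 and 0.21, beside 0.26 between C1qb and C1qc. C1qa was not low in WT 4. The mean in WT 4 therefore lies between the chains and is the level of none of them. Adgre5, the adhesion receptor CD97, read 147 in WT 4 and 307 to 594 in the other 7. Abcc3, an organic anion exporter, read 403 and 815 to 1326. Both were lowest in WT 4, as C1qb and C1qc were, which follows from matching them to a mean that was low there. Over the 7 libraries without WT 4, Adgre5 ranked 16 of the 7982 genes and H2-Q7 ranked 66. H2-Q7 and Pira1 belong to families of near-identical genes, and their probes may read relatives.

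**Figure D4:**
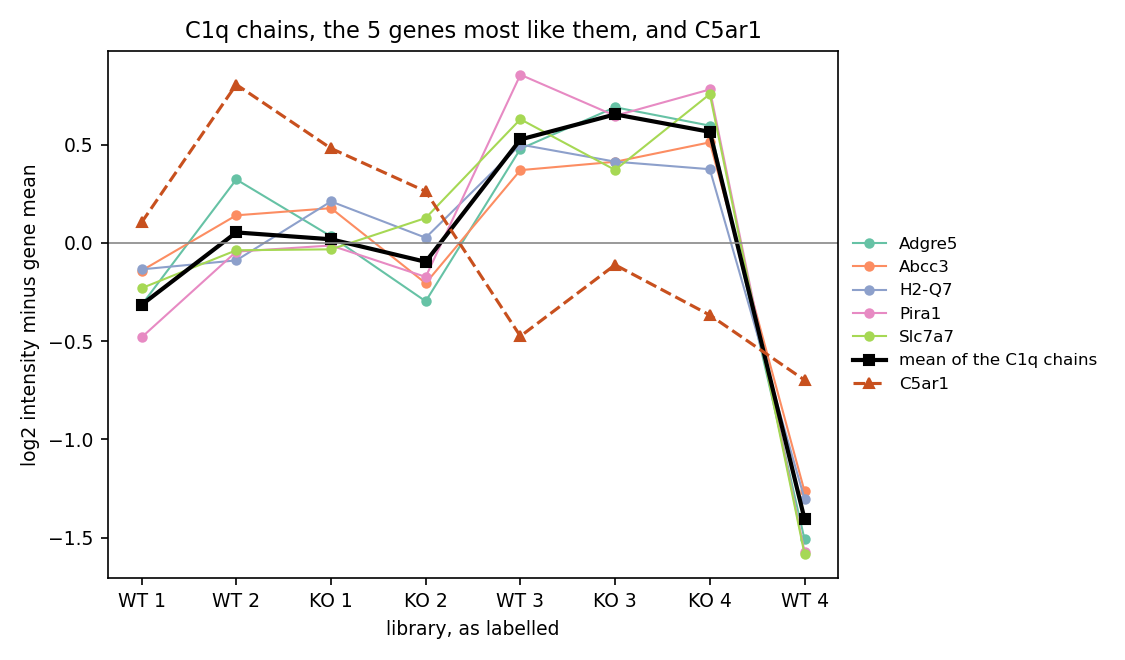
Log2 intensity minus the mean of each gene (vertical axis) in the 8 libraries as labelled (horizontal axis, which has no order of time or dose). The black line is the mean of C1qa, C1qb and C1qc, coloured lines are the 5 genes most like it and the dashed line is C5ar1; the C1q mean is at -1.41 in WT 4, while C5ar1 is highest in WT 2. The low mean in WT 4 comes from C1qb and C1qc, as C1qa was not low there.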

How the data were processed

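Biotinylated cRNA was made from Trizol-extracted, column-cleaned total RNA and read on an Illumina beadchip, per the labels' protocols. What the authors deposited is a probe intensity table on a linear scale, 45281 probes by 8 arrays, whose quantiles are identical on every array. For the software and background correction, nothing is given in the sources used here. A further 16 columns of per-sample values in a second table carry names that match no label and were not used. Genes were named from the platform annotation, with 1 symbol required, and chromosomes from RefSeq (GRCm38.p6).

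The background step was normexp with an offset of 50 (limma 3.58.1, R 4.3.3), before taking log2. This offset shrinks differences of dim probes relative to a smaller offset such as 16. Probes reading at least 100 on at least 4 arrays were kept, 13479 probes and 7982 genes, each gene by its probe with the highest mean intensity. Labels were compared with lmFit and eBayes (two-sided) and Benjamini-Hochberg adjustment over the kept probes, at 0.05. C4b and Cfb values come from the same fit over all probes. Single intensities, means and SDs are of the deposited values. The number of libraries, 4 per label, limits the precision, and so does the spread within a label. The median SE over the genes measured was 0.17, and 0.12 without WT 4. The fit was also run on simulated data with independent normal noise. Those data held no library that stood apart and no split by number, so they do not test the fit under these features.

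The members, lists and tests were chosen with earlier results of these data known. Named genes were the members, Vav1, genes of the wider list that passed or read at least 1000 in any library, and the 5 genes most like the C1q chains over 8 libraries. Other genes of that list, the markers and Lyz2 were named after their values were seen. The rule skips unnamed and predicted genes, of which 0 came up. Alternatives covered the correction, the minimum, the variance model, array weights, the replicate number, the probe per gene and each library left out.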

Additional observations from a re-analysis of the deposited data

How the results depend on the processing

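Under all 16 alternatives 0 probes, 0 members and 0 genes of the wider complement list passed at an adjusted p under 0.05 in limma, with 9 to 938 probes, 0 to 1 members and 0 to 1 genes of that list at an unadjusted p under 0.05. The 938 came from the fit of all 45281 probes. The median log2 difference of the members was 0.15, and 0.06 (without WT 4) to 0.25 (without WT 2) with 1 library left out in turn. It was 0.27 with a normexp offset of 16, 0.05 over 8 members with no minimum, and 0.72 at a minimum intensity of 200, where 3 members, C1qb, C1qc and Cfp, were left. Of 93 refitted values of single members 84 kept their sign and side of the threshold and 9 changed sign. Array weights turned C3ar1 to 0.016 and Cfp to 0.016. With 1 library left out, C1qa ranged from 0.071 to 0.287, moving by over 1.5 times without WT 1, WT 2, WT 3, KO 2, KO 3 or KO 4, C1qb from 0.079 to 1.035 and C1qc from 0.319 to 1.202. C3ar1 ranged from -0.203 to 0.046, C5ar1 from -0.079 to 0.42 and Cfp from -0.092 to 0.054. The sign turned without WT 4 for C3ar1, without WT 3, WT 4 or KO 1 for C5ar1 and without WT 2, KO 1 or KO 2 for Cfp, and the cause was not tested. Array weights also took C1qb to 0.12 and C1qc to 0.36. With the replicate number as a block, 0 probes passed, 27 were at an unadjusted p under 0.05, and the members' median stayed at 0.15. Same-numbered libraries had correlations of their deviations of 0.46, -0.17, 0.14 and 0.13 for the numbers 1 to 4. As 3 of 4, not all, were over 0.1, the numbers were not taken as pairs, and 1 of the 4 correlated best with its own number. The dim signal of C1qa, C3ar1, C5ar1, C4b and Cfb, near the array median of 86.2, limits what their differences can show.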

Other observations

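Over the 7 libraries without WT 4, the log2 intensity of C1qb, C1qc and C5ar1 had standard deviations of 0.45, 0.46 and 0.46, each above those of at least 97.7% of the 7982 genes measured. C1qa had 0.30, above 92.3% of genes, Cfp 0.18, above 64.2%, and C3ar1 0.11, above 26.0%. By this measure the members ranged from among the most variable genes over these libraries to among the steadier ones, and no test was made. C3ar1, C1qa and C5ar1 were dim, and the offset shrinks differences of dim probes. The low value of C3ar1 therefore does not show steady expression. The deleted gene Vav1 lies on chromosome 17, as do C4b and Cfb, with C2 next to Cfb in the RefSeq table, and none of these 3 complement genes reached the intensity minimum.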
